A study of Mus musculus with 6 samples.

Results

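Cholesterol synthesis was described in newborn mouse osteoblasts, the cells that build bone, and chondrocytes, the cells of cartilage, through 7 genes chosen by name: Hmgcs1, Idi1, Fdps, Sqle, Lss, Dhcr7 and Srebf2. They are 7 of the 23364 gene symbols in the authors' RNA-seq table. Osteoblast libraries, 3 in number, came from cells sorted by GFP, a fluorescent marker protein, out of the calvaria (skull vault) of C57BL/6 mice at age P1, the first day after birth. Their genotype is given as Sp7 positive, and Sp7, also called Osterix, is a transcription factor needed for bone formation; the construct behind the sort is named only as Sp7-GFP. The chondrocyte group held 3 libraries of rib cells from WT C57BL/6 mice, also at P1. The osteoblasts were released with Liberase TM and the chondrocytes with Pronase and Collagenase D, so cell type, body site, sorting, genotype and enzyme cannot be told apart. The sources used here do not give the number of animals behind a library, so the p-values measure the spread between these libraries, which may be technical.

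Cells build cholesterol from acetyl units. The first enzymes make mevalonate and from it the isoprenoid farnesyl diphosphate, the next make squalene and close it into lanosterol, and the last turn lanosterol into cholesterol. The membrane-bound transcription factor SREBP-2, made from Srebf2, is carried to the Golgi and cut free when sterols in the endoplasmic reticulum are low, and then turns on genes of cholesterol synthesis and uptake. Cholesterol also modifies hedgehog proteins, the signals that pattern cartilage and bone, and inherited loss of DHCR7 in people causes skeletal malformations.

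SREBP-2 binds short sterol elements in promoters, usually beside sites of the factors NF-Y and Sp1. Promoters are shown as a description, and their part in the levels of these genes was not tested. RefSeq promoter sequences of build GRCm38.p6 were matched by symbol for 5 of the 7 genes. The 250 bases before the start site are given 5′ to 3′ on the plus strand for the 4 genes with 1 listed start. Capitals mark matches on either strand to TCACNCCAC (a sterol element), CCAAT (the NF-Y box) and GGGCGG (a GC box). The windows were Hmgcs1 at chr13:119690101-119690350, Idi1 at chr13:8885356-8885605, Lss at chr10:76531355-76531604 and Srebf2 at chr15:82147019-82147268.
Hmgcs1: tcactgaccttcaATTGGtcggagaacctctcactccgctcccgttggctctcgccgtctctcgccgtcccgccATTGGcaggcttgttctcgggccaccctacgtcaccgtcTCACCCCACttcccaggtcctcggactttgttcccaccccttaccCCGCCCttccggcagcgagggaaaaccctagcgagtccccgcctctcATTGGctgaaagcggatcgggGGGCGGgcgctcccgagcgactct
Idi1: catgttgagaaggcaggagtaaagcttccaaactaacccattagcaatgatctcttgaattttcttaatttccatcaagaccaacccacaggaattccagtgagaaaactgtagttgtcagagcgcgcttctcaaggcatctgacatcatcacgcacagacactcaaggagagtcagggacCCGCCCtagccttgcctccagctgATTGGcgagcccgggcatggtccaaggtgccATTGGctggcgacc
Lss: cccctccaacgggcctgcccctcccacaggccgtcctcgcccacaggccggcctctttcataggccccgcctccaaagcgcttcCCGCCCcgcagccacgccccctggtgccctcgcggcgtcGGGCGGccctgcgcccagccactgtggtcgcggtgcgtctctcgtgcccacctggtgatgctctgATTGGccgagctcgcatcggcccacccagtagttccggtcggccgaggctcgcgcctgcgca
Srebf2: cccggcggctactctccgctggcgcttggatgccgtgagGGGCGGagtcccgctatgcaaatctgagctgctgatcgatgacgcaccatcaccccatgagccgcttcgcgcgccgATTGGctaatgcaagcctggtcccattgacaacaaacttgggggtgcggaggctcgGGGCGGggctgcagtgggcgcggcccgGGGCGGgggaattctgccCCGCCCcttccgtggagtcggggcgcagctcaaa
The sterol element was found in 1 of the 5 genes, Hmgcs1, where it begins 137 bases before the start. It was in 1.05% of all 32851 promoters of that length. Only this exact form, with any letter at N, was searched, so other forms of a sterol element were not counted. All 5 genes had a CCAAT box and a GC box, Dhcr7 in at least 1 of its 3 listed start sites. The CCAAT box was in 33.8% and the GC box in 32.7% of all promoters, each counted singly. A gene was counted if any of its listed start sites matched, so genes with several starts had more chances to match. Of 13 other synthesis enzymes in the promoter table, 11 had a CCAAT box, 11 a GC box and 0 this sterol element. A match describes letters and not binding.

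Values are in RPKM, reads scaled to transcript length and sequencing depth, so levels can be compared between genes. By the steps of low values, an estimated 26960000 to 34680000 reads stood behind the osteoblast columns and 33450000 to 35890000 behind the chondrocyte columns. Sp7 ranged over 108 to 134 RPKM in osteoblasts and 0.911 to 2.31 in chondrocytes, and Col2a1, the main cartilage collagen, over 23.7 to 35.5 RPKM in osteoblasts and 26727 to 48028 in chondrocytes. All 7 osteoblast markers were above every chondrocyte library, and all 7 chondrocyte markers above every osteoblast library. Chondrocyte replicate 2 stood apart from the other two chondrocyte libraries in Matn1, a cartilage matrix protein, with 46.6 RPKM against 3.12 and 3.10. Of 6 tendon and fibroblast markers, 4 had every osteoblast library above every chondrocyte library, such as Dpt at 13.5 to 41.0 RPKM in osteoblasts and 0.127 to 0.272 in chondrocytes. The other two were the reverse, Tnmd at 17.5 to 37.9 RPKM in osteoblasts and 52.3 to 341 in chondrocytes and Thbs4 at 1.48 to 2.94 RPKM in osteoblasts and 65.1 to 284 in chondrocytes. The 6 summed to 112 to 173 RPKM in osteoblasts and 146 to 687 in chondrocytes. Of all genes tested below, 60.4% had every osteoblast library above every chondrocyte library, and 15.3% had the reverse. Of 6 muscle markers, Tnnt3 ranged over 0.697 to 0.999 RPKM in osteoblasts and 9.16 to 40.1 in chondrocytes, the other 5 did not exceed 0.175 RPKM, and Myod1, Myog and Ckm were under 0.05 in all 6 libraries. A gene was tested where 3 or more libraries reached 1 RPKM, which 11218 genes did. Every difference is the osteoblast mean less the chondrocyte mean of log2(RPKM + 1), and the added 1 makes the change of low genes look smaller. The median of all tested genes was 0.43, so a gene at 0 lay on the chondrocyte side of the typical gene. In bulk RNA, fewer cells of a type and less RNA per cell cannot be told apart.

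Hmgcs1, the synthase that works just before mevalonate is made, was listed at the table's floor of 0.0001 RPKM on both of its lines in all 6 libraries. Those 2 lines carry the same RefSeq identifier. Of 1327 lines whose identifier is repeated, 69.9% were at the floor throughout, against 18.9% of lines with an identifier listed once. No level, fold or test is therefore given for Hmgcs1.

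Of the 6 genes that could be tested, 1 was higher in osteoblasts (Dhcr7), 1 was higher in chondrocytes (Idi1) and 4 were not called, a call being a limma p under 0.05 after Benjamini-Hochberg adjustment. Over all tested genes, 69.0% were called, 55.5% as higher in osteoblasts and 13.5% as higher in chondrocytes. The median log2 difference of the 6 genes was 0.04, beside 0.43 for all tested genes. Their summed level was 80.3 ± 16.9 RPKM in osteoblasts and 79.8 ± 19.8 in chondrocytes (SD, n = 3 each).

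Idi1, the isomerase that turns isopentenyl diphosphate into its reactive form, separated the cell types. It stood at 5.51, 7.12 and 4.54 RPKM in osteoblasts and at 13.8, 11.6 and 13.6 in chondrocytes. Every chondrocyte library lay above every osteoblast library, a pattern of 15.3% of tested genes (in 60.4% every osteoblast library lay above). The chondrocyte mean was 2.27-fold higher, and the log2 difference was -1.07 ± 0.15 (SE, limma, Benjamini-Hochberg adjusted p = 6.31e-04). Idi1 was called higher in chondrocytes in each of the 18 alternative settings run, with log2 differences of -1.48 to -0.75. Its relative Idi2 did not exceed 0.0397 RPKM in any library.

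Fdps, which joins isoprenoid units into farnesyl diphosphate, stood at 25.7, 32.1 and 18.3 RPKM in osteoblasts and at 14.6, 26.5 and 17.4 in chondrocytes. The groups overlapped. Its log2 difference of 0.37 (95% interval -0.24 to 0.98, limma adjusted p = 0.235) was not called. It was 0.19 without osteoblast replicate 2, 0.19 without chondrocyte replicate 1, 0.58 without osteoblast replicate 3 and 0.60 without chondrocyte replicate 2, and was called in none of these. The table lists 2 Fdps transcripts. The minor one, NM_001253751, made up 7.31%, 4.75% and 3.55% of Fdps RPKM in osteoblasts and 10.1%, 14.5% and 8.83% in chondrocytes. Its share was lower in each osteoblast library than in each chondrocyte library. It rested on an estimated 24 to 179 reads a library, the sources used here do not say how reads were divided between transcripts, and the share was not tested.

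Sqle, the epoxidase that adds oxygen to squalene, stood at 14.6, 16.5 and 11.3 RPKM in osteoblasts and at 12.4, 18.0 and 14.2 in chondrocytes. Its log2 difference was -0.07 (95% interval -0.47 to 0.34, limma adjusted p = 0.750), and the groups overlapped. Lss, the cyclase that makes lanosterol, stood at 3.81, 3.84 and 2.72 RPKM in osteoblasts and at 3.16, 6.35 and 3.38 in chondrocytes. Chondrocyte replicate 2 was the highest library, and the other two chondrocyte libraries lay within the osteoblast range. The log2 difference of Lss was -0.21 (95% interval -0.75 to 0.33, limma adjusted p = 0.441).

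Dhcr7, the reductase of a last step to cholesterol, stood at 6.32, 6.48 and 5.04 RPKM in osteoblasts and at 3.28, 5.34 and 3.67 in chondrocytes. Osteoblast replicate 3 lay below chondrocyte replicate 2, so the groups overlapped. The osteoblast mean was 1.45-fold higher, with a log2 difference of 0.46 ± 0.17 (SE, limma, adjusted p = 0.0415), which lay 0.03 above the median of all tested genes. The call was lost under each of the 4 other scalings of the libraries, where the differences were 0.06 to 0.33. It was also lost without osteoblast replicate 1 (limma adjusted p = 0.127) or 2 (0.132), and without chondrocyte replicate 1 (0.127) or 3 (0.0934).

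Srebf2 stood at 26.6, 30.0 and 20.5 RPKM in osteoblasts and at 18.5, 34.6 and 19.0 in chondrocytes. The chondrocyte range enclosed the osteoblast range. Its log2 difference was 0.14 (95% interval -0.46 to 0.73, limma adjusted p = 0.650). Without chondrocyte replicate 2 the difference was 0.42 and was called (adjusted p = 0.0361), and under median-of-ratios scaling it was -0.29 (adjusted p = 0.426).

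By mean RPKM, the order in osteoblasts was Srebf2 (25.7 ± 4.79), Fdps (25.4 ± 6.89), Sqle (14.1 ± 2.63), Dhcr7 (5.95 ± 0.788), Idi1 (5.72 ± 1.30) and Lss (3.46 ± 0.638, SD, n = 3). In chondrocytes it was Srebf2 (24.0 ± 9.19), Fdps (19.5 ± 6.24), Sqle (14.9 ± 2.83), Idi1 (13.0 ± 1.18), Lss (4.30 ± 1.78) and Dhcr7 (4.10 ± 1.10). Neighbours whose means differed by less than the larger of their SDs were Srebf2 and Fdps as well as Dhcr7 and Idi1 in osteoblasts, and Srebf2 and Fdps, Fdps and Sqle, Sqle and Idi1, and Lss and Dhcr7 in chondrocytes.

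**Figure D1:**
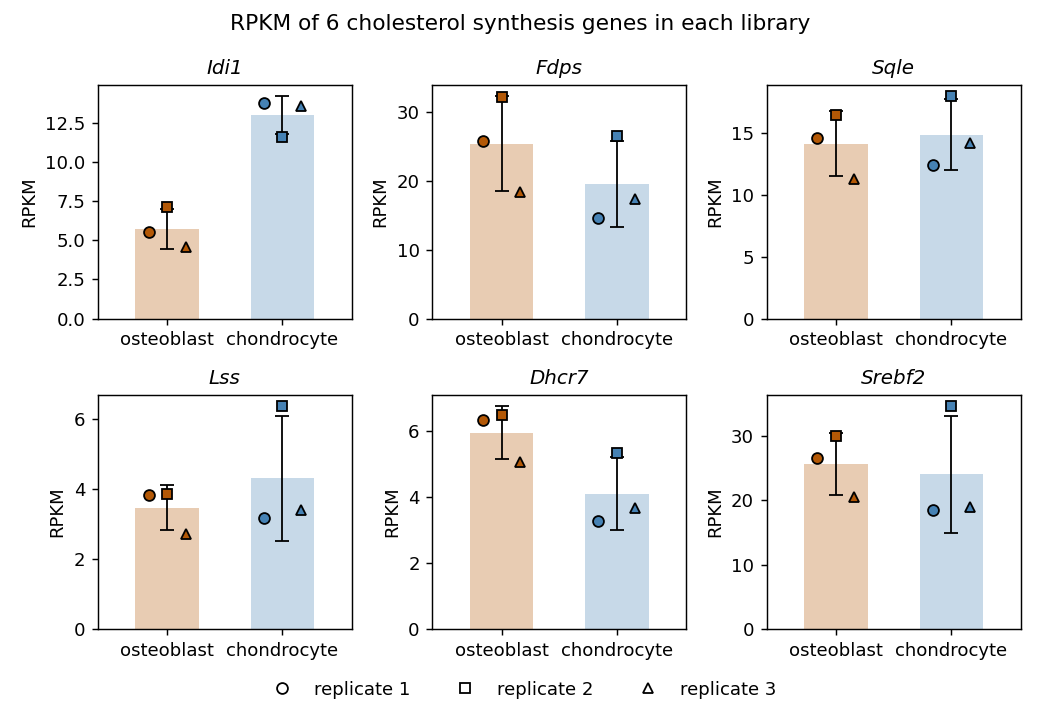
RPKM (vertical axes, from 0) of the 6 genes with a level above the floor, in osteoblast and chondrocyte libraries. Bars are means, whiskers SD (n = 3) and points single libraries, shaped by replicate number. For Idi1 the chondrocyte points (11.6 to 13.8 RPKM) lie above the osteoblast points (4.54 to 7.12 RPKM), and for the other genes the groups overlap.

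Within a cell type, the genes were high and low in the same libraries. Of the osteoblast libraries, replicate 2 was the highest in 6 of 6 genes and replicate 3 the lowest in 6 of 6. Over all tested genes, 42.7% were highest in osteoblast replicate 2 and 59.4% lowest in osteoblast replicate 3. In chondrocytes, 5 of the 6 were highest in replicate 2, beside 17.7% of all tested genes, and Idi1 was lowest there. Other synthesis enzymes had a similar order. Of 15 tested, 13 were highest in osteoblast replicate 2, 13 lowest in osteoblast replicate 3 and 9 highest in chondrocyte replicate 2. Under median-of-ratios scaling these counts were 12, 12 and 13 of the 15, beside 34.9%, 34.7% and 37.8% of all tested genes. With libraries scaled to the same RPKM total, 10 of the 15 were highest in chondrocyte replicate 2, beside 22.0% of all tested genes. Replicate 2 over the mean of the other two chondrocyte libraries was 1.94 for Lss, 1.85 for Srebf2, 1.66 for Fdps, 1.54 for Dhcr7, 1.35 for Sqle and 0.851 for Idi1. The counts of 6, 6 and 5 genes were the same under the 4 other scalings, where 33.6% to 35.5%, 30.2% to 34.7% and 22.0% to 37.8% of all tested genes had these patterns. Chondrocyte replicate 2 also had the highest Col2a1 and Matn1, the highest Tnnt3 and the lowest Tnmd and Thbs4 of the chondrocyte libraries, and their part in the pattern was not tested.

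**Figure D2:**
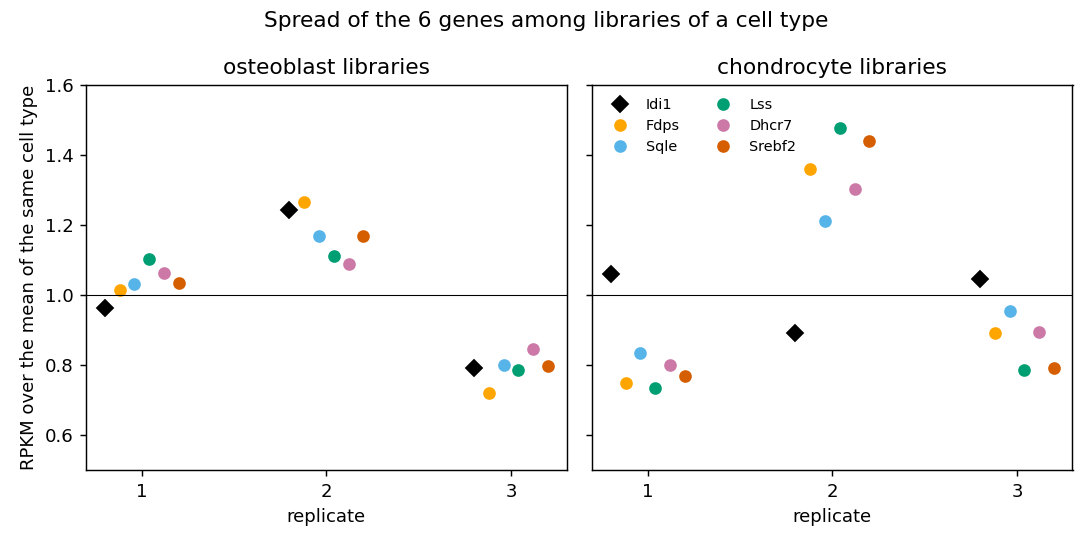
RPKM of each gene in a library over its mean in the same cell type (vertical axis), by replicate number, with osteoblast libraries on the left and chondrocyte libraries on the right; colours are genes and the diamond is Idi1. Osteoblast replicate 3 is the lowest osteoblast library for all 6 genes, and chondrocyte replicate 2 is the highest chondrocyte library for 5 of them, with Idi1 lowest there.

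The genes whose log2 profile over the 6 libraries was most like the mean profile of these 6 genes were Fads2 (Pearson r = 0.993), Plod3 (0.975), Nucb1 (0.968), Rab3a (0.946) and Slc35a2 (0.939). The 6 libraries are shared by all these genes, so the values are descriptions. Fads2, a desaturase of polyunsaturated fatty acids, stood at 17.2, 21.0 and 13.3 RPKM in osteoblasts and at 13.7, 23.0 and 14.6 in chondrocytes. It had the low osteoblast replicate 3 and the high chondrocyte replicate 2, and was not called between the cell types (log2 difference 0.02, limma adjusted p = 0.937). Among the 6 genes themselves, r with their mean profile ran from 0.07 for Idi1 to 0.97 for Sqle.

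The rest of the synthesis route was split between the cell types. Of 16 other synthesis enzymes, 15 were tested. The limma test called 6 as higher in osteoblasts, 4 as higher in chondrocytes and left 5 uncalled, with a median log2 difference of 0.34. Idi2 was the one not tested. With the enzymes among the 7 genes, which leaves out the transcription factor gene Srebf2, 7 of 20 tested enzymes were higher in osteoblasts and 5 in chondrocytes. From acetyl units to farnesyl diphosphate, 3 of 7 were called on the osteoblast side and 2 on the chondrocyte side. For squalene and ring closure the counts were 0 and 1 of 3, and from lanosterol to cholesterol 4 and 2 of 10. The shares of all tested genes called were 55.5% on the osteoblast side and 13.5% on the chondrocyte side.

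Acat2, which joins the first acetyl units, was on the osteoblast side with 10.3 ± 1.06 RPKM in osteoblasts and 5.43 ± 0.471 in chondrocytes (mean ± SD, n = 3, as for each mean here; log2 difference 0.81, limma adjusted p = 5.10e-04). So were mevalonate kinase, Mvk, with 9.24 ± 1.43 RPKM in osteoblasts and 4.41 ± 0.503 in chondrocytes (0.91, adjusted p = 7.38e-04), and the decarboxylase Mvd, with 6.90 ± 0.870 RPKM in osteoblasts and 3.41 ± 0.314 in chondrocytes (0.84, adjusted p = 5.99e-04). Pmvk, the kinase between them, was not called, with 8.84 ± 0.862 RPKM in osteoblasts and 7.85 ± 2.61 in chondrocytes.

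Fdft1, squalene synthase, was higher in chondrocytes. It stood at 6.19, 6.79 and 5.35 RPKM in osteoblasts and at 8.85, 12.8 and 9.89 in chondrocytes (log2 difference -0.69, limma adjusted p = 0.00458). After lanosterol, enzymes that take the methyl groups off the same carbon differed in direction. Msmo1, the oxidase that starts this removal and is listed under its older symbol Sc4mol, stood at 7.05, 7.13 and 6.10 RPKM in osteoblasts and at 13.2, 20.1 and 15.1 in chondrocytes (-1.13, adjusted p = 5.29e-04). Nsdhl, the dehydrogenase that follows, averaged 4.93 ± 0.916 RPKM in osteoblasts and 2.37 ± 0.251 in chondrocytes (0.80, adjusted p = 0.00161). Hsd17b7, the reductase that completes it, had each chondrocyte library above each osteoblast library but was not called (-0.37, adjusted p = 0.0530); it was called under the 4 other scalings.

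Ebp, the sterol isomerase, had the largest difference of the tested enzymes. It stood at 14.4, 17.9 and 14.9 RPKM in osteoblasts and at 3.53, 3.87 and 4.89 in chondrocytes, 3.84-fold (log2 difference 1.72 ± 0.13 SE, limma adjusted p = 3.99e-05). Sc5d, the desaturase that acts after it, was on the chondrocyte side at 5.25, 6.54 and 4.69 RPKM in osteoblasts and at 10.0, 9.59 and 10.5 in chondrocytes (-0.77, adjusted p = 0.00107). For both genes the groups did not overlap. Lbr, a nuclear membrane protein with sterol reductase activity, averaged 11.6 ± 1.40 RPKM in osteoblasts and 8.88 ± 0.269 in chondrocytes and was called higher in osteoblasts (0.34, adjusted p = 0.0227). Lbr had a negative difference when libraries were scaled by median of ratios (-0.07), upper quartile (-0.07) or quantiles (-0.08). Its call was also lost with libraries scaled to the same RPKM total (adjusted p = 0.114), without osteoblast replicate 2 (0.0956) and without chondrocyte replicate 1 (0.0678). Cyp51 (-0.11) and Tm7sf2 (0.40) were not called, though Cyp51 was called higher in chondrocytes under median-of-ratios, upper-quartile and quantile scaling (-0.53 to -0.52).

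**Figure D3:**
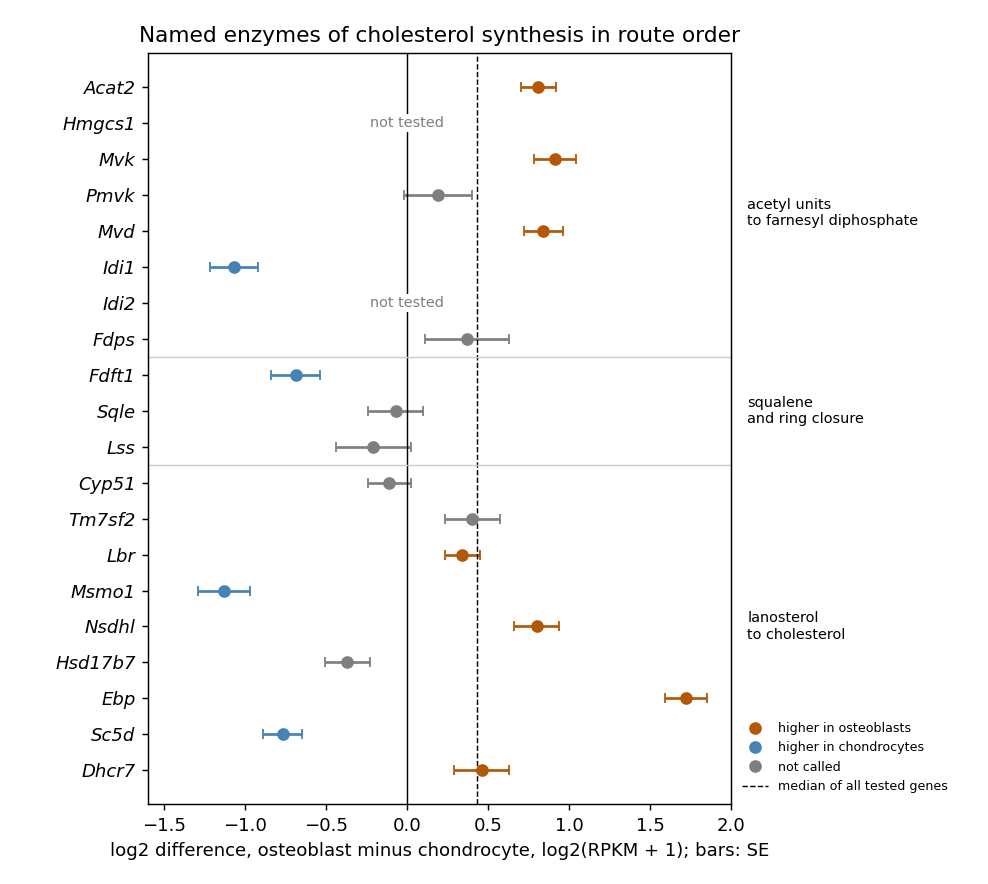
Osteoblast minus chondrocyte difference of mean log2(RPKM + 1) (horizontal axis, bars SE) for the enzymes named in the text, in route order from top to bottom. Both directions occur before squalene and after lanosterol, from -1.13 for Msmo1 to 1.72 for Ebp; the dashed line is the median of all tested genes, 0.43, and Hmgcs1 and Idi2 were not tested.

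Of 13 genes of SREBP control, the proteins that hold, carry or release the factor, 12 were tested. Of these, 8 on the osteoblast side and 1 on the chondrocyte side passed the test, and 3 did not, with a median log2 difference of 0.38. That median lay below the 0.43 of all tested genes, 55.5% of which were called on the osteoblast side and 13.5% on the chondrocyte side. Insig1, which keeps the SREBP complex in the endoplasmic reticulum and is itself turned on by SREBP, stood at 14.7, 18.9 and 13.4 RPKM in osteoblasts and at 57.1, 58.4 and 65.3 in chondrocytes. It was 3.84-fold higher in chondrocytes (log2 difference -1.89 ± 0.14 SE, limma adjusted p = 2.96e-05). Its relative Insig2 stood at 11.9, 12.0 and 14.0 RPKM in osteoblasts and at 5.05, 4.11 and 5.19 in chondrocytes and was higher in osteoblasts (1.24, adjusted p = 9.20e-05). Scap, the escort of SREBP, averaged 21.6 ± 1.69 RPKM in osteoblasts and 10.2 ± 1.91 in chondrocytes (1.02, adjusted p = 5.80e-04). The ubiquitin ligase Rnf145 averaged 28.8 ± 2.94 RPKM in osteoblasts and 9.58 ± 2.76 in chondrocytes (1.53, adjusted p = 4.46e-04). Srebf1, which makes the sister factor SREBP-1, was not called and stood at 28.7, 26.1 and 25.3 RPKM in osteoblasts and at 24.8, 39.3 and 18.2 in chondrocytes. With libraries scaled by median of ratios, 4 genes of this list were higher in osteoblasts and 2 in chondrocytes.

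Of 15 genes of sterol uptake and transport, 14 were tested. Of these, 6 on the osteoblast side and 3 on the chondrocyte side passed the test, and 5 did not, with a median log2 difference of 0.13. Over all tested genes, 55.5% were called on the osteoblast side and 13.5% on the chondrocyte side. Stard4, a carrier that moves sterol between membranes, stood at 2.47, 3.18 and 2.19 RPKM in osteoblasts and at 10.3, 11.5 and 12.2 in chondrocytes (log2 difference -1.77 ± 0.13 SE, limma adjusted p = 2.91e-05). Its groups did not overlap. Gramd1a, named after its values were seen and also on the chondrocyte side, differed by -0.30 (adjusted p = 0.0391), a call lost without osteoblast replicate 1 or 3 or chondrocyte replicate 1 or 3.

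On the osteoblast side, Lipa, the lysosomal lipase that frees cholesterol from lipoproteins, stood at 13.3, 13.8 and 12.9 RPKM in osteoblasts and at 1.46, 1.36 and 2.15 in chondrocytes, 8.05-fold (log2 difference 2.44 ± 0.13 SE, limma adjusted p = 7.83e-06). Vldlr, a lipoprotein receptor, stood at 5.04, 5.13 and 6.23 RPKM in osteoblasts and at 0.572, 1.93 and 0.521 in chondrocytes. Lrp8, named after its values were seen, stood at 1.84, 1.94 and 1.36 RPKM in osteoblasts and at 0.377, 1.18 and 0.487 in chondrocytes. Both are counted on the osteoblast side, but in chondrocytes only replicate 2 reached 1 RPKM. They entered the test through the osteoblast libraries, where they were high, so their tests are not read. Stard3, a sterol carrier of late endosomes, averaged 13.9 ± 1.59 RPKM in osteoblasts and 5.51 ± 0.547 in chondrocytes (1.20, adjusted p = 1.06e-04). Lrp1, the most abundant uncalled gene of the list, averaged 76.1 ± 21.9 RPKM in osteoblasts and 73.5 ± 15.1 in chondrocytes.

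Of 11 genes of sterol efflux, esterification and oxidation, 7 were tested. Of these, 3 on the osteoblast side and 1 on the chondrocyte side passed the test, and 3 did not, with a median log2 difference of 0.42. The shares of all tested genes called on these sides were 55.5% and 13.5%. Abca1, the pump that loads cholesterol onto apolipoproteins, stood at 5.18, 3.19 and 4.88 RPKM in osteoblasts and at 1.44, 0.954 and 1.22 in chondrocytes (1.28, limma adjusted p = 4.69e-04). The other two counted on the osteoblast side, Ch25h and Nceh1, reached 1 RPKM in the osteoblast libraries alone, so they entered the test only through the cell type in which they were high and their test is not read. Ch25h, which makes an oxysterol, stood at 1.75, 2.83 and 2.05 RPKM in osteoblasts and at 0.0441, 0.0220 and 0.0618 in chondrocytes. Nceh1, an ester hydrolase, stood at 1.42, 1.32 and 1.14 RPKM in osteoblasts and at 0.852, 0.419 and 0.912 in chondrocytes. Without any one osteoblast library neither was tested, and the count on the osteoblast side was 1. Soat1, which esterifies cholesterol, was on the chondrocyte side and averaged 3.81 ± 0.0127 RPKM in osteoblasts and 6.10 ± 1.66 in chondrocytes (-0.54, adjusted p = 0.0223), a call lost without any one osteoblast library or chondrocyte replicate 1. Apoe, an apolipoprotein, was not called and stood at 41.4, 25.8 and 34.0 RPKM in osteoblasts and at 23.9, 2.59 and 21.1 in chondrocytes. Without chondrocyte replicate 2 it was called, with a difference of 0.54 (adjusted p = 0.0357). Macrophages also express several of these genes and Lipa, and 6 of 8 myeloid markers had every osteoblast library above every chondrocyte library. That pattern held in 60.4% of all tested genes. Cd14, another of the myeloid markers, had the reverse, at 1.91, 1.88 and 1.43 RPKM in osteoblasts and at 5.95, 4.06 and 5.15 in chondrocytes. The myeloid markers summed to 17.5 to 21.3 RPKM in osteoblasts and 5.60 to 13.9 in chondrocytes, with Ptprc at most 0.345 RPKM, and their part in these differences was not tested.

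Of 12 genes of the isoprenoid branch, which uses farnesyl and longer units to modify proteins and build dolichol and ubiquinone, all tested, 7 on the osteoblast side and 1 on the chondrocyte side passed the test, and 4 did not, with a median log2 difference of 0.51. Beside these counts, 55.5% of all tested genes were called on the osteoblast side and 13.5% on the chondrocyte side. Branch genes on the osteoblast side included Icmt (0.91), Fntb (0.79) and Rabggta (0.59), with limma adjusted p of 0.00339, 2.26e-04 and 0.00248. Rabggta was not called under median-of-ratios, upper-quartile or quantile scaling. One of the genes counted on the osteoblast side, Pdss1, stood at 1.78, 1.87 and 1.27 RPKM in osteoblasts and at 0.527, 0.636 and 0.631 in chondrocytes. It reached 1 RPKM in the osteoblast libraries alone, so its test is not read, and 6 are counted without it. Under median-of-ratios scaling this list counted 3 higher in osteoblasts and 5 in chondrocytes. Fnta, with 25.9 ± 1.76 RPKM in osteoblasts and 23.5 ± 2.31 in chondrocytes, was not called, and was called higher in chondrocytes under median-of-ratios, upper-quartile and quantile scaling (-0.30 to -0.27). Rabggtb, named after its values were seen, was the gene on the chondrocyte side (-0.44, adjusted p = 0.00520). Its transcript NR_028094 stood at 4.58, 6.04 and 4.90 RPKM in osteoblasts and 13.6, 11.7 and 13.3 in chondrocytes. Its transcript NM_001163478 stood at 10.3, 9.86 and 8.69 RPKM in osteoblasts and 9.03, 10.1 and 10.2 in chondrocytes, and with the most abundant transcript per gene no gene of this list was called higher in chondrocytes.

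Of 15 genes of fatty acid synthesis, 14 were tested. Of these, 4 on the osteoblast side and 3 on the chondrocyte side passed the test, and 7 did not, with a median log2 difference of 0.06. Among all tested genes the shares called were 55.5% on the osteoblast side and 13.5% on the chondrocyte side. Scd1, a desaturase of saturated fatty acids, stood at 6.86, 6.72 and 6.41 RPKM in osteoblasts and at 13.5, 26.7 and 12.1 in chondrocytes (-1.18, limma adjusted p = 0.00551). The more abundant Scd2 was not called, with 74.4 ± 1.47 RPKM in osteoblasts and 70.3 ± 24.8 in chondrocytes. Both were highest in chondrocyte replicate 2 of the chondrocyte libraries, and without it Scd2 was called (0.40, adjusted p = 0.0148). The acetyl-CoA ligase Acss2, counted on the osteoblast side, stood at 1.94, 2.01 and 1.58 RPKM in osteoblasts and at 0.797, 0.398 and 0.697 in chondrocytes. It reached 1 RPKM in the osteoblast libraries alone, so its test is not read, and 3 are counted without it. The elongases Elovl1 (1.05, limma adjusted p = 2.71e-04) and Elovl5 (0.92, adjusted p = 0.00234) were higher in osteoblasts, and Elovl5 was not called under median-of-ratios, upper-quartile or quantile scaling. Without chondrocyte replicate 2, 7 genes of this list were called higher in osteoblasts. The adipocyte markers summed to 0.315 to 0.762 RPKM in osteoblasts and 3.70 to 7.25 in chondrocytes. Most of the chondrocyte sum was Fabp4, at 0.225, 0.462 and 0.116 RPKM in osteoblasts and at 3.85, 3.01 and 6.64 in chondrocytes. Pparg did not exceed 0.267 RPKM in osteoblasts and stood at 0.756, 0.690 and 0.539 in chondrocytes. Plin1 did not exceed 0.0746 RPKM in any library and its groups overlapped. Adipoq, Cidec and Lep were under 0.05 RPKM in all 6 libraries.

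**Figure D4:**
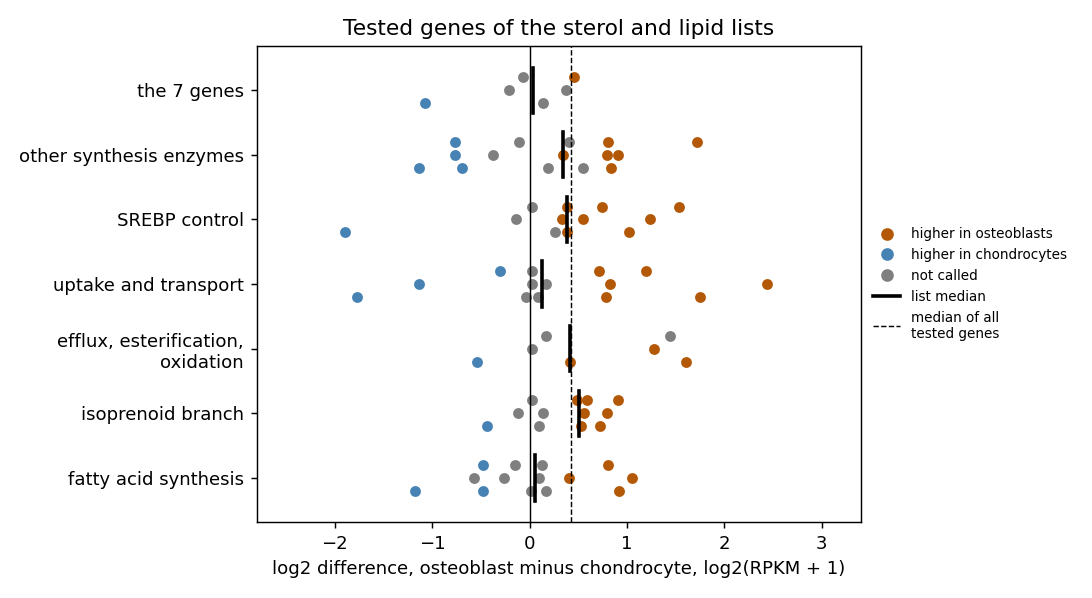
Osteoblast minus chondrocyte difference of mean log2(RPKM + 1) (horizontal axis) of each tested gene, by list. Points are genes coloured by call, thick bars list medians and the dashed line the median of all tested genes (0.43); the list medians run from 0.04 for the tested members of the 7 genes to 0.51 for the isoprenoid branch.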

How the data were processed

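RNA-seq libraries of 3 osteoblast and 3 chondrocyte samples were grouped by GEO title. The authors deposited 1 table of RPKM values for 31055 RefSeq transcripts, with a floor of 0.0001. TopHat2 2.0.8 and mouse build mm9 are named in the submitters' processing notes, and the counting program and its treatment of shared reads are not given in the sources used here.

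Transcripts of 1 symbol were added up per library. The two-sided test was that of limma 3.58.1 (R 4.3.3), run on log2(RPKM + 1) with its variance trend and robust options, and p-values were Benjamini-Hochberg adjusted over 11218 genes. Tested on simulated data where 200 of 11218 genes differed, it found 76.0% of genes with a log2 change of 1 and 94.0% with a change of 2, and 5.56% of calls were false. The simulated data had no shift of scale between the cell types, and in the real data 69.0% of genes were called. These simulated shares therefore need not hold for the real data. Depth was estimated from whole-read steps of low values with GENCODE M21 transcript lengths. Per library, 53.2% to 61.7% of the values checked lay within 0.05 of a whole read, beside 10% for values that are not whole. Alternatives were 2 pseudocounts, 2 filters, 4 scalings, another moderation, a replicate block, library weights, 1 transcript per gene and each library left out.

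The 7 genes and the lists were chosen with earlier results of these data known. Named genes are the 7, the other synthesis enzymes, the 4 called genes of largest change and the most abundant uncalled gene of each other list, and the 5 genes most alike in profile; some genes counted in the lists are not reported here by name.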

Additional observations from a re-analysis of the deposited data

How the results depend on the processing

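Idi1 kept its direction and its call in all 18 alternative settings. Scaling moved the median of all tested genes by -0.37 (median of ratios), -0.13 (same RPKM total), -0.38 (upper quartile) and -0.41 (quantiles), and a pseudocount of 5 by -0.17. No member was called higher in osteoblasts under these 4 scalings or without a filter on low values (count 0, member transcripts 0). Under median-of-ratios scaling 3765 genes were called higher in osteoblasts and 3178 in chondrocytes, SREBP control counted 4 and 2, the isoprenoid branch 3 and 5, fatty acid synthesis 2 and 5, and 6 uptake genes were higher in chondrocytes. Dhcr7 was at 0.09, and signs turned for Fdps (-0.06), Srebf2 (-0.29), Pmvk (-0.21), Lbr (-0.07), Srebf1 (-0.40), Lrp1 (-0.41), Fnta (-0.29) and Scd2 (-0.31). Under upper-quartile scaling 3706 genes were called higher in osteoblasts and 3184 in chondrocytes, SREBP control counted 4 and 2, the isoprenoid branch 3 and 5, fatty acid synthesis 2 and 5, and 6 uptake genes were higher in chondrocytes. Dhcr7 was at 0.08, and signs turned for Fdps (-0.06), Srebf2 (-0.30), Pmvk (-0.21), Lbr (-0.07), Srebf1 (-0.41), Lrp1 (-0.41), Fnta (-0.30) and Scd2 (-0.31). Under quantile normalization 3597 genes were called higher in osteoblasts and 3456 in chondrocytes, SREBP control counted 4 and 2, the isoprenoid branch 2 and 5, fatty acid synthesis 2 and 5, and 6 uptake genes were higher in chondrocytes. Dhcr7 was at 0.06, and signs turned for Fdps (-0.04), Srebf2 (-0.28), Pmvk (-0.21), Tm7sf2 (-0.02), Lbr (-0.08), Srebf1 (-0.38), Lrp1 (-0.33), Nceh1 (-0.07), Fnta (-0.27) and Scd2 (-0.25). With the same RPKM total, Dhcr7 was at 0.33, 2 genes of SREBP control were higher in chondrocytes, and signs turned for Srebf2 (-0.02), Srebf1 (-0.13), Lrp1 (-0.13), Fnta (-0.02) and Scd2 (-0.02). Fnta was called higher in chondrocytes under the first 3 of these.

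Without a filter Dhcr7 stayed at 0.46 but lost its call (limma adjusted p = 0.0686), and 5 efflux genes were higher in osteoblasts. With a mean RPKM of at least 5, the efflux list had 0 calls in osteoblasts and 0 in chondrocytes and fatty acid synthesis 2 in osteoblasts, since fewer genes are tested; Lss had no value there. With estimated library weights, 3 members and 3 of their transcripts were called higher in osteoblasts, Fdps (0.72) and Srebf2 (0.45) joining Dhcr7, and signs turned for Sqle (0.16), Lss (0.10) and Cyp51 (0.03). SREBP control then had 2 and the isoprenoid branch 2 calls in chondrocytes, and fatty acid synthesis 7 in osteoblasts. With the most abundant transcript per gene the isoprenoid branch had 0 calls in chondrocytes. Over all tested genes, same-numbered libraries did not deviate together (correlations 0.08, 0.01 and -0.16). The members did in part, as replicate 2 was highest for 6 of 6 in osteoblasts and 5 of 6 in chondrocytes. With the replicate block Idi1 was -1.07 (limma adjusted p = 0.00167), Dhcr7 0.46 (adjusted p = 0.0298) and Fdps 0.37 (adjusted p = 0.0869). Then 2 member transcripts were called higher in osteoblasts, and 5892 and 1376 genes were called in all. Under the block Gramd1a was -0.30 and not called (adjusted p = 0.0861).

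Leaving out 1 library at a time gave Dhcr7 0.35 to 0.63, Fdps 0.19 to 0.60, Srebf2 -0.02 to 0.42, Sqle -0.18 to 0.07, Lss -0.36 to 0.05, Pmvk -0.03 to 0.41, Srebf1 -0.22 to 0.31, Lrp1 -0.19 to 0.18 and Scd2 -0.07 to 0.40. The counts ranged over 0 to 2 members and 0 to 3 member transcripts higher in osteoblasts, 1 to 2 genes of SREBP control higher in chondrocytes, 1 to 4 efflux genes higher in osteoblasts and 0 to 1 in chondrocytes, and 2 to 7 genes of fatty acid synthesis higher in osteoblasts. Where no cause is stated, the cause was not tested.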
